A study of Homo sapiens with 12 samples.

Results

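The genes described here encode high mobility group (HMG) chromatin proteins. They were HMGB1, HMGB2, HMGB3, HMGN1, HMGN2 and HMGA1, 6 genes among the 33297 probe sets of a whole-transcript Affymetrix array (Human Gene 1.0 ST), where several short probes in the exons measure 1 gene. Each gene was represented by the probe set with the highest mean signal among those whose annotation lists that gene alone. HMGB3 (probe set 8170468) was chosen by the study, and selected here, for its lower signal with SOX11 siRNA, so its values are given as a description without a test. HMGB1 had no probe set of its own, and probe set 8078248, which lists HMGB1 together with CTCFL and SP100, is therefore reported by its ID. Of the 6 genes, 5 had a probe set of their own and 4 (HMGB2, HMGN1, HMGN2 and HMGA1) were tested.

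Expression was measured in the SOX11-positive mantle cell lymphoma (MCL) line Granta 519, an established cell line. For each transfection 4000000 cells were nucleofected, that is electroporated so that nucleic acids enter the nucleus, with 100 pmol of SOX11 siRNA or of control siRNA and harvested after 20 hours, and another group was untreated. There were 4 arrays of SOX11 siRNA, 4 of control siRNA and 4 of untreated cells, all of this 1 cell line. RNA of the transfected cells came from individual transfection experiments, and the labels do not say how the untreated cultures were set up. SOX11, the targeted gene, had signals of 188 to 229 with SOX11 siRNA, 1026 to 1191 with control siRNA and 978 to 1041 in untreated cells (log2 fold change against control siRNA -2.27, SE 0.0893). Among the markers of the labelled cell type, mean signals of CCND1 were 3213, 3284 and 3451 and those of MS4A1, which encodes CD20, were 4544, 4447 and 4637 in SOX11 siRNA, control siRNA and untreated cells. CD5, which most MCL express, stayed at 49.1, 42.7 and 54.2, below the median signal of every array (69.2 to 91.8).

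HMG proteins are abundant non-histone proteins that bind DNA or nucleosomes and alter how chromatin folds. The HMGB proteins bend DNA with their HMG boxes, the DNA-binding fold that SOX11 and the other SOX factors also carry. HMGN proteins bind the nucleosome core and compete with linker histone H1, and HMGA proteins bind AT-rich DNA through short AT hooks. HMGB1 also leaves damaged or activated cells and then acts as an inflammatory signal through surface receptors.

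HMGB3, an X-linked HMG-box gene that in the mouse is expressed in hematopoietic stem and progenitor cells, is described first. Its signal was 398, 396, 339 and 372 on the SOX11 siRNA arrays, against 602, 688, 594 and 565 on the control siRNA arrays and 606, 562, 620 and 646 on the untreated arrays. All SOX11 siRNA arrays lay below all other arrays, and the control siRNA and untreated arrays overlapped. The means were 376 ± 27.5 with SOX11 siRNA, 612 ± 53.0 with control siRNA and 609 ± 35.1 in untreated cells (SD, n = 4 arrays each). On the log2(signal + 16) scale the difference was -0.68 (SE 0.0922) for SOX11 siRNA against control siRNA, 0.01 (SE 0.0922) for control siRNA against untreated cells and -0.67 (SE 0.0922) for SOX11 siRNA against untreated cells. On the linear scale the mean with SOX11 siRNA fell by 38.6% against control siRNA. The highest SOX11 siRNA array and the lowest control siRNA array were 167 signal units apart. In bulk RNA, fewer cells that express a gene and less of its RNA per cell cannot be told apart. The genes whose log2 values followed HMGB3 most closely over the 12 arrays were CNOT6 (Pearson r 0.99), TMSB15A (0.98) and CASP6 (0.98), out of 11618 probe sets with 1 symbol and a mean above that of the median probe set. CNOT6 encodes a deadenylase subunit, TMSB15A an actin-binding thymosin and CASP6 a caspase, and the 12 points share the 3 groups. The study chose these 3 genes, like HMGB3, for a fall with SOX11 siRNA on the same arrays, so their likeness is not independent of that choice. A probe set of the pseudogene HMGB3P1 was dim, at means of 37.1, 39.7 and 45.0 in SOX11 siRNA, control siRNA and untreated cells. RefSeq names 32 pseudogenes after HMGB3, and whether its probes also match their transcripts was not tested.

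**Figure D1:**
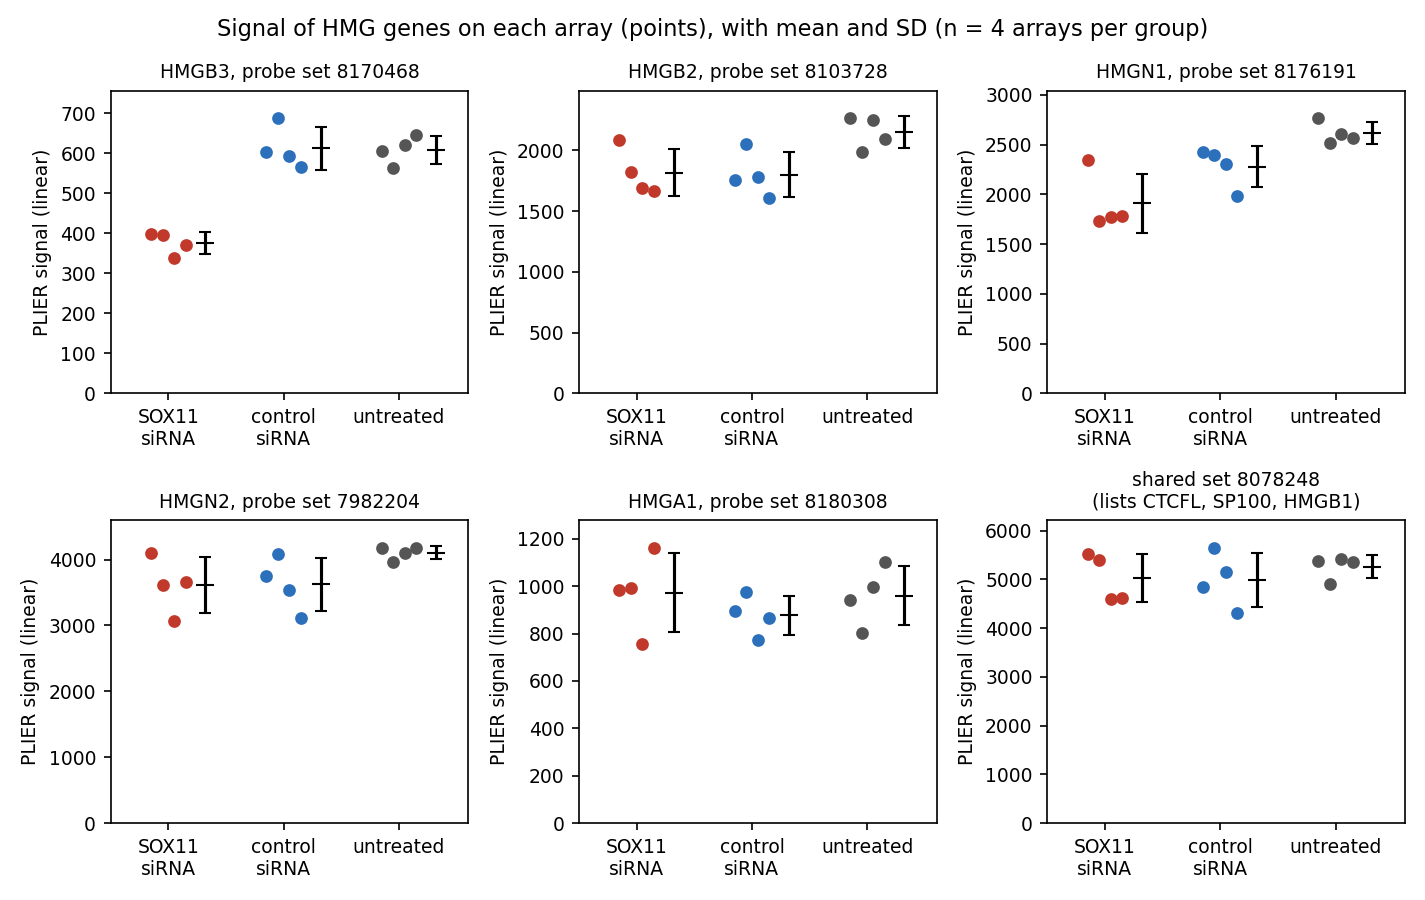
Linear PLIER signal (vertical axis, starting at 0) of 5 HMG genes and of the probe set shared by CTCFL, SP100 and HMGB1, one point per array, with the mean and SD of 4 arrays beside each group. HMGB3 sits between 339 and 398 with SOX11 siRNA, below all control siRNA and untreated arrays, whereas HMGN1 has 1 SOX11 siRNA array at 2347 among the control siRNA arrays.

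Because SOX11 is a DNA-binding factor, the sequence before the 2 annotated starts of HMGB3 is shown, from RefSeq (GRCh38.p14, plus strand), with matches to 3 motifs in capitals. The motifs were AACAAT and AACAAAG, forms of the element that SOX HMG boxes bind, and CCAAT, bound by NF-Y, searched on both strands in windows of 250 bases before to 50 bases after the start; they were picked with the windows in view. The stretches printed run to 20 bases after the start, at chrX:150983085-150983354 for the first start and chrX:150984141-150984410 for the second.
HMGB3 first start: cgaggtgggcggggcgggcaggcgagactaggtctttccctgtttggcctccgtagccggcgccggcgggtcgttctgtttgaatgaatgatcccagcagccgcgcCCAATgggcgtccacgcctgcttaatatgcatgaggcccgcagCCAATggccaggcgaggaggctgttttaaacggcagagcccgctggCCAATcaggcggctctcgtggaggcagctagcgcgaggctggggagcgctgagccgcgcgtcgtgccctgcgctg
HMGB3 second start: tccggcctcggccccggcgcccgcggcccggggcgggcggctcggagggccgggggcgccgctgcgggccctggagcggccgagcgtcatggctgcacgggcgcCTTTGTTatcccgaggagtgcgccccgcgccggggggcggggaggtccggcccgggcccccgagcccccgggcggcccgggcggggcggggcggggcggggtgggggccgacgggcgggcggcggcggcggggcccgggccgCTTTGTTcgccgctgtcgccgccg
The first stretch holds 3 CCAAT matches, at -144 to -140, -101 to -97 and -55 to -51 from the start, and its window has 1 AACAAT at 33 to 38 after the start, beyond the printed part. The second stretch holds 2 AACAAAG matches, on the minus strand and so written CTTTGTT, at -146 to -140 and at -4 to 3 (there is no position 0). No match overlaps another. Of 35116 RefSeq windows of this length, 10.1% hold AACAAT, 5.2% AACAAAG and 34.6% CCAAT, with 0.174% holding 2 or more AACAAAG and 3.26% 3 or more CCAAT. Windows were found for 5 of the 6 genes (all but HMGB2), 9 in all, and those of HMGB1, HMGN1, HMGN2 and HMGA1 hold neither AACAAT nor AACAAAG. HMGN1 has 2 CCAAT matches, HMGN2 has 1, the 2 windows of HMGA1 have 1 each, and the 3 windows of HMGB1 have 0, 3 and 1. A match describes the letters only.

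With SOX11 siRNA against control siRNA, 0 of the 4 tested genes passed a threshold of 0.05 on the adjusted p in limma (Benjamini-Hochberg over all probe sets), and 1 (HMGN1) had an unadjusted p under 0.05. Of all 33297 probe sets, 0.180% were called lower and 0.00300% higher in this comparison, and 1418 (4.26%) had an unadjusted p under 0.05. None of the 4 genes had SOX11 siRNA arrays that all lay below the control siRNA arrays, which 1.35% of all probe sets had. Against untreated cells, HMGN1 was the 1 of 4 that fell with SOX11 siRNA, on 1 of its 2 probe sets, and 0 of 4 rose. There 1.60% of all probe sets were called lower, 0.805% were called higher and 5.54% had SOX11 siRNA arrays all below the untreated ones. In that comparison 2 of 4 (HMGB2 and HMGN1) had an unadjusted p under 0.05, as did 4963 (14.9%) of all probe sets. All probe sets include 12083 without a symbol. In a fit of the 19460 with 1 symbol, 645 were called lower and 393 higher in that comparison. With control siRNA against untreated cells 0 of 4 passed in limma and 1 (HMGB2) had an unadjusted p under 0.05, as did 2855 (8.57%) of all probe sets, where 0.216% of probe sets were called lower and 0.171% higher. In that comparison HMGN1 was 1 of 4 with control siRNA arrays all below the untreated arrays, which 5.85% of all probe sets had. The median log2 fold change of all probe sets was 0.01, -0.06 and -0.06 in SOX11 siRNA against control siRNA, in control siRNA against untreated cells and in SOX11 siRNA against untreated cells. Each pair of these comparisons shares 4 arrays, so their values are given side by side only. SOX11 siRNA and untreated cells differ in nucleofection, siRNA and SOX11 at once, and these cannot be told apart in that comparison.

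HMGB2, the HMG-box paralog that is most abundant in dividing cells, had close means with both siRNAs, 1815 ± 193 with SOX11 siRNA and 1800 ± 186 with control siRNA (SD, n = 4). Its signals were 2086, 1821, 1691 and 1664 with SOX11 siRNA, 1761, 2052, 1782 and 1606 with control siRNA, and 2267, 1990, 2254 and 2094 in untreated cells. The siRNA groups overlapped over nearly their whole range, and in each of them 3 of 4 arrays lay below all untreated arrays. The log2 fold change between the siRNAs was 0.01, with a 95% confidence interval of -0.20 to 0.23. Against untreated cells it was -0.25 with SOX11 siRNA (adjusted p = 0.262, limma) and -0.26 with control siRNA (adjusted p = 0.475, limma), neither past the threshold. HMGB2 was most alike over the 12 arrays to DUT (r 0.97), H2AC13 (0.97) and PLAC8 (0.96), of which DUT encodes a dUTPase and H2AC13 a replication-dependent histone H2A. The probe set that lists CTCFL, SP100 and HMGB1 had means of 5032 ± 492, 4986 ± 561 and 5260 ± 234 (SD, n = 4) with SOX11 siRNA, with control siRNA and in untreated cells, and its log2 fold changes were 0.01, -0.08 and -0.07 in the same order of comparisons as above. These cannot be assigned to HMGB1.

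HMGN1, a nucleosome-binding protein that in mouse cells takes part in DNA repair, carried the 1 call, on 1 of its 2 probe sets. On probe set 8176191 its signal was 2347, 1734, 1767 and 1786 with SOX11 siRNA, 2426, 2398, 2308 and 1983 with control siRNA, and 2766, 2520, 2608 and 2568 in untreated cells. The first SOX11 siRNA array stood among the control siRNA arrays and the other 3 lay below all of them, while every transfected array lay below every untreated array. On this probe set the HMGN1 signal was lower with SOX11 siRNA than in untreated cells. The means were 1908 ± 293 with SOX11 siRNA and 2616 ± 107 in untreated cells (SD, n = 4). The log2 fold change was -0.46 (SE 0.108, adjusted p = 0.0338, limma). Leaving out 1 array took that adjusted p over 0.05 for 8 of the 12 arrays (SOX11 siRNA replicate 2, 3 or 4, control siRNA replicate 3 and each untreated replicate), to 0.119 at most (without untreated replicate 1), and centring each array on its median gave 0.0618. Without SOX11 siRNA replicate 1 the log2 fold change was -0.56 and the adjusted p 0.00684 in limma. Against control siRNA it was -0.26 (95% confidence interval -0.49 to -0.03, adjusted p = 1.00, limma), and for control siRNA against untreated cells -0.20 (adjusted p = 0.661, limma).

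The call did not extend to the second HMGN1 probe set. Probe set 8070389 had signals of 1140, 1223, 980 and 1036 with SOX11 siRNA, 1107, 1304, 1167 and 1116 with control siRNA, and 1276, 1186, 1294 and 1234 in untreated cells. These groups overlapped, and the log2 fold changes were -0.10, -0.09 and -0.19 for SOX11 siRNA against control siRNA, for control siRNA against untreated cells and for SOX11 siRNA against untreated cells (adjusted p = 0.360 for the last, limma). Within each array, the log2 ratio of probe set 8176191 over 8070389 averaged 0.79 ± 0.22 with SOX11 siRNA and 1.06 ± 0.04 in untreated cells (SD, n = 4), a difference of -0.27 (two-sided exact permutation test, p = 0.0571, adjusted 0.114 over 6 such tests chosen after the values were seen). In the same test the smallest p the 4 against 4 design allows is 0.0286. RefSeq names 38 pseudogenes after HMGN1, and whether the probes also match their transcripts was not tested. Which of these probe sets lies at the HMGN1 locus was not tested either. The call is therefore that of probe set 8176191 and may not describe HMGN1 itself. PAFAH1B3 (r 0.99), ZNF32 (0.97) and RPAIN (0.97) were most alike to HMGN1 over the 12 arrays.

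HMGN2, the close relative of HMGN1, did not pass the test in any comparison. Probe set 7982204 gave 4100, 3616, 3065 and 3665 with SOX11 siRNA, 3749, 4087, 3539 and 3114 with control siRNA, and 4175, 3969, 4094 and 4179 in untreated cells. The untreated arrays were tight, with a coefficient of variation of 2.40%, against 11.8% with SOX11 siRNA and 11.2% with control siRNA. Log2 fold changes were -0.01 for SOX11 siRNA against control siRNA (95% confidence interval -0.23 to 0.22), -0.19 for control siRNA against untreated cells (adjusted p = 0.692, limma) and -0.19 for SOX11 siRNA against untreated cells (adjusted p = 0.419, limma). Of its other probe sets, 8000409 gave 0.01, -0.20 and -0.19 and 7899187 gave 0.05, -0.04 and 0.01 in that order of comparisons. Probe set 8000409 followed 7982204 array by array (3908, 3472, 2932 and 3516 with SOX11 siRNA). It is therefore not a separate measurement beside 7982204. The mean signals over 12 arrays that chose among them were 3779 for 7982204, 3610 for 7899187 and 3604 for 8000409. For the within-array log2 ratio of 7982204 over 7899187, SOX11 siRNA arrays averaged -0.02 ± 0.07 and untreated arrays 0.17 ± 0.04 (SD, n = 4). The difference was -0.20 (two-sided exact permutation test, p = 0.0286, adjusted 0.114 over 6), which did not pass after adjustment. The ratios did not overlap, at -0.09 to 0.05 with SOX11 siRNA and 0.12 to 0.21 in untreated cells. That p is the smallest the 4 against 4 design allows, and 1 such p among 6 tests could not pass after adjustment. RefSeq names 48 pseudogenes after HMGN2, and which of its probe sets lies at the HMGN2 locus was not tested. SH3BGRL, CFDP1 and GINS2, each at r 0.96, were most alike over the 12 arrays.

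**Figure D2:**
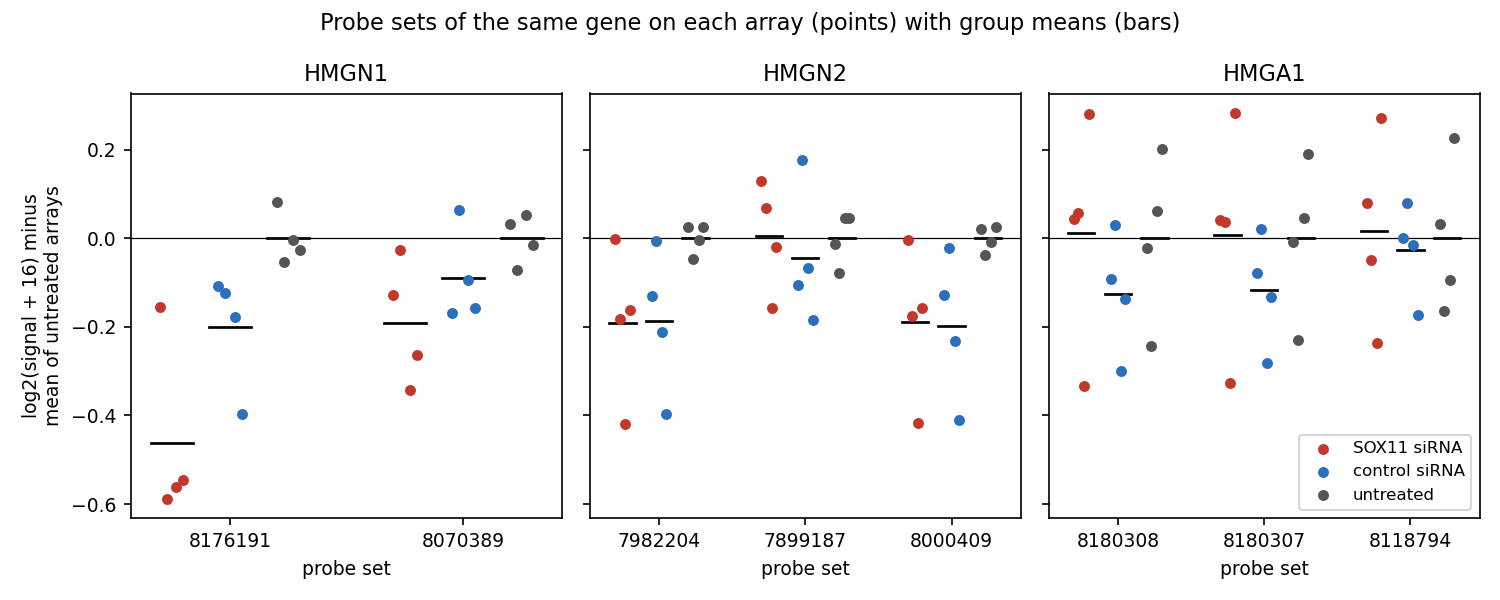
The vertical axis is log2(signal + 16) minus the mean of the untreated arrays for each probe set of HMGN1, HMGN2 and HMGA1, with one point per array and a bar at each group mean. HMGN1 8176191 averages -0.46 with SOX11 siRNA where 8070389 averages -0.19, HMGN2 7899187 stays near 0 where the other 2 sets average -0.19, and HMGA1 8180308, 8180307 and 8118794 all overlap between the groups.

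HMGA1, the AT-hook protein, varied more between SOX11 siRNA arrays than between the groups. Probe set 8180308 gave 984, 993, 754 and 1162 with SOX11 siRNA, 894, 974, 772 and 866 with control siRNA, and 940, 803, 997 and 1100 in untreated cells. The lowest and the highest of the 12 signals were both SOX11 siRNA arrays, replicates 3 and 4, which also had the lowest and the highest median signal of all arrays (69.2 and 91.8); the part of that in the spread was not tested. The log2 fold changes were 0.14 for SOX11 siRNA against control siRNA (95% confidence interval -0.14 to 0.41), -0.12 for control siRNA against untreated cells and 0.01 for SOX11 siRNA against untreated cells. Probe sets 8180307 and 8118794 gave 0.13 and 0.04 for SOX11 siRNA against control siRNA. Probe set 8180307 followed 8180308 array by array (900, 898, 694 and 1068 with SOX11 siRNA), so its 0.13 is not a separate measurement. Mean signals over 12 arrays were 937 for 8180308 and 859 for 8180307, close to each other at the choice, and 362 for 8118794. A further probe set, which lists HMGA1 with ERFE and cannot be assigned, gave log2 fold changes of -0.07, -0.03 and -0.10 for SOX11 siRNA against control siRNA, for control siRNA against untreated cells and for SOX11 siRNA against untreated cells. PARVB (r 0.96), NENF (0.94) and MAZ (0.93) were most alike over the 12 arrays.

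**Figure D3:**
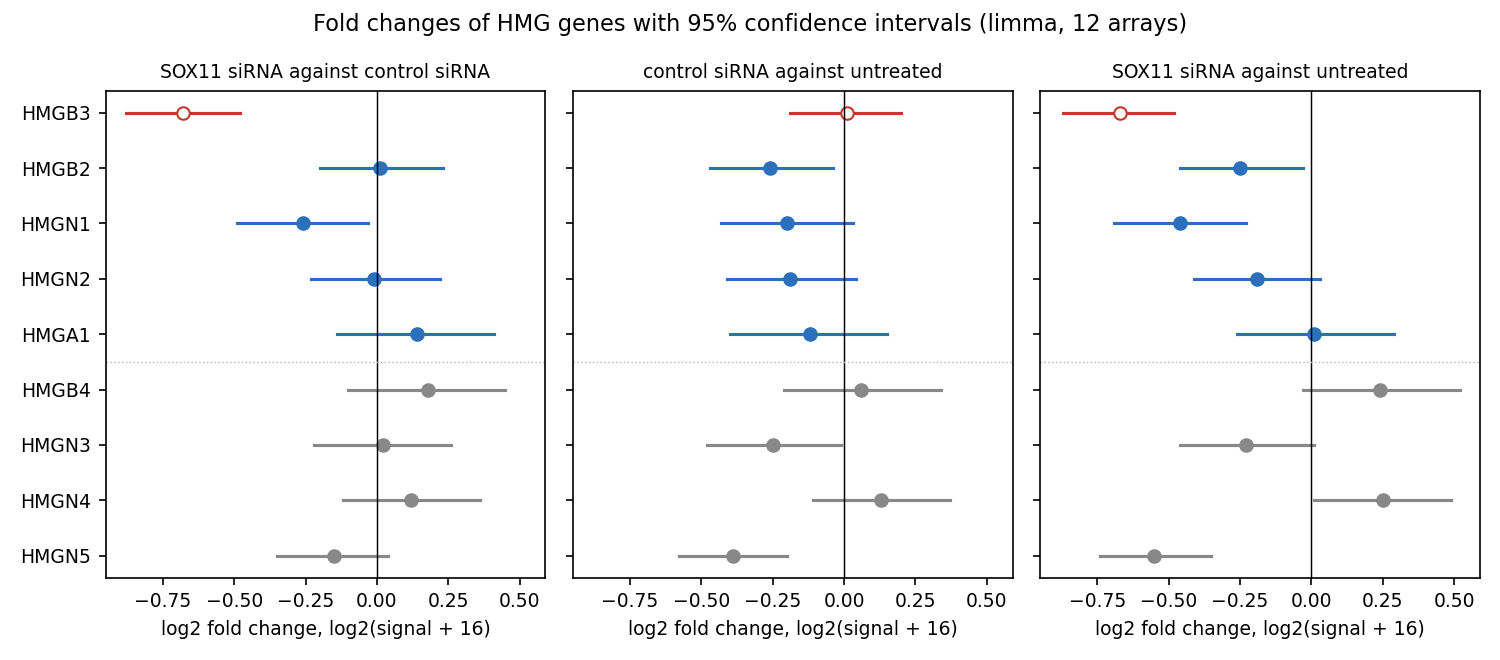
Log2 fold changes (horizontal axis, log2(signal + 16)) with 95% confidence intervals from limma on 12 arrays, for the HMG genes above the dotted line and 4 further HMG genes below it, in the comparisons named over each panel. HMGB3, drawn open because it was chosen for this fall, is at -0.68 in the first panel, where the interval of HMGB2 runs from -0.20 to 0.23, and HMGN1 and HMGN5 are at -0.46 and -0.55 in the third.

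Of the other HMG genes, 4 of 5 (HMGB4, HMGN3, HMGN4 and HMGN5; not HMGA2) had a probe set of their own, and 1 of them, HMGN5, passed the test. HMGN5 is an X-linked HMGN protein with a long acidic tail that counteracts linker histone compaction. Its signals were 188, 166, 188 and 192 with SOX11 siRNA, 203, 220, 211 and 191 with control siRNA, and 252, 262, 283 and 307 in untreated cells. All transfected arrays lay below the untreated ones, and the siRNA groups overlapped narrowly. HMGN5 fell with SOX11 siRNA against untreated cells (log2 fold change -0.55, SE 0.0907, adjusted p = 0.00436, limma). Its linear mean fell by 33.4% in that comparison, where 1.60% of all probe sets were called lower. The log2 fold change of HMGN5 was -0.39 with control siRNA against untreated cells (adjusted p = 0.0855, limma) and -0.15 with SOX11 siRNA against control siRNA (95% confidence interval -0.35 to 0.04). HMGN3 (0.02, -0.25 and -0.23), HMGN4, an intronless copy of HMGN2 (0.12, 0.13 and 0.25), and HMGB4, which is dim here at a mean of 23.2 over the 12 arrays (0.18, 0.06 and 0.24), passed in no comparison; their log2 fold changes are in the order SOX11 siRNA against control siRNA, then control siRNA against untreated cells, then SOX11 siRNA against untreated cells. The median of the 4 genes was 0.07, -0.09 and 0.01 in that order, against 0.01, -0.06 and -0.06 over all probe sets.

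Other HMG-box proteins, outside HMGB and SOX, were measured for 19 of 21 listed genes. With SOX11 siRNA against control siRNA 0 passed in limma, and the median log2 fold change was -0.03. Of the 19, 2 had an unadjusted p under 0.05 there, as did 4.26% of all probe sets. With SOX11 siRNA against untreated cells 1.60% of all probe sets were called lower. HMGXB4, which bears an HMG box, was the 1 of 19 that fell there. It gave 573, 613, 471 and 602 with SOX11 siRNA, 677, 743, 668 and 662 with control siRNA and 764, 753, 773 and 831 in untreated cells, without overlap between any 2 groups. The log2 fold change of HMGXB4 was -0.46 against untreated cells (adjusted p = 0.0183, limma) and -0.28 against control siRNA (adjusted p = 0.747, limma). With control siRNA against untreated cells it was -0.18 (adjusted p = 0.663, limma). PBRM1 also had SOX11 siRNA arrays all below the control siRNA arrays, as had 1.35% of all probe sets. Its log2 fold change there was -0.35 (adjusted p = 0.529, limma). Among linker histones and nucleosome architecture genes, 14 of 16 were measured. With SOX11 siRNA against untreated cells 1 of the 14 fell, against 1.60% of all probe sets called lower. This was CBX1, which encodes the heterochromatin protein HP1 beta (log2 fold change -0.49, adjusted p = 0.0317, limma). CBX1 had log2 fold changes of -0.42 with SOX11 siRNA against control siRNA (adjusted p = 0.347, limma) and -0.07 with control siRNA against untreated cells (adjusted p = 0.909, limma). With control siRNA against untreated cells 0 of 14 passed in limma (5 at an unadjusted p under 0.05, against 8.57% of all probe sets), and 13 of 14 had log2 fold changes below 0, with a median of -0.16, where 67.9% of all probe sets were below 0.

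HMGB1 receptors and partners at the cell surface were measured for 12 of 12 listed genes. With SOX11 siRNA against control siRNA 1 of them fell, where 0.180% of all probe sets were called lower. This was CD24, a surface glycoprotein that binds HMGB1, which the study itself chose for its fall, so its direction is not independent. Its signals were 741, 524, 576 and 615 with SOX11 siRNA, 1269, 1535, 1345 and 1111 with control siRNA and 1209, 1177, 1402 and 1238 in untreated cells. With SOX11 siRNA against untreated cells 2 of the 12 fell, CD24 (log2 fold change -1.02, adjusted p = 0.000296, limma) and CXCR4. Of all probe sets, 1.60% were called lower there. CXCR4 is the receptor of CXCL12, which HMGB1 can bind. Its means were 758 with SOX11 siRNA and 1159 in untreated cells (log2 fold change -0.60, adjusted p = 0.00826, limma). SOX11 siRNA against control siRNA gave -0.43 for CXCR4 (adjusted p = 0.270, limma). Its SOX11 siRNA arrays all lay below the control siRNA arrays, as in 1.35% of all probe sets. Control siRNA against untreated cells gave -0.18 (adjusted p = 0.735, limma). The median of the 12 was -0.02, -0.03 and -0.02 in SOX11 siRNA against control siRNA, in control siRNA against untreated cells and in SOX11 siRNA against untreated cells. Nuclear partners of HMGB proteins were measured for 10 of 16 listed genes, and 0 passed in any comparison in limma. With SOX11 siRNA against control siRNA 1 had an unadjusted p under 0.05, as did 4.26% of all probe sets. With control siRNA against untreated cells it was 0, against 8.57%, and with SOX11 siRNA against untreated cells 2, against 14.9%. The smallest p values with SOX11 siRNA against control siRNA belonged to APEX1, a DNA repair endonuclease (log2 fold change -0.21, adjusted p = 1.00, limma), RAG2 (-0.11) and XPO1 (0.08). RAG2 was dim, at a mean of 10.6 over the 12 arrays.

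Proliferation markers are given beside these genes because HMGB2 is abundant in cycling cells. All 13 listed were measured, and 0 passed with SOX11 siRNA against control siRNA in limma. There 1 had an unadjusted p under 0.05, as did 4.26% of all probe sets. Against untreated cells 2 of 13 fell with SOX11 siRNA, where 1.60% of all probe sets were called lower. These were MKI67 (log2 fold change -0.44, adjusted p = 0.0458, limma) and STMN1, a microtubule regulator (-0.49, adjusted p = 0.0194, limma). MKI67 had means of 710 with SOX11 siRNA, 716 with control siRNA and 975 in untreated cells, and its log2 fold change was also -0.44 with control siRNA against untreated cells (adjusted p = 0.121, limma) and -0.00 with SOX11 siRNA against control siRNA. For STMN1 these were -0.20 (adjusted p = 0.627, limma) and -0.29 (adjusted p = 0.856, limma). With control siRNA against untreated cells 13 of 13 had log2 fold changes below 0, with a median of -0.15, where 67.9% of all probe sets were below 0 with a median of -0.06. None of the 13 passed in limma there, and 2 had an unadjusted p under 0.05, as did 8.57% of all probe sets. Centring each array on its median moved the median of all probe sets in this comparison to 0.02. Their part in the values of the HMG genes was not tested. Summed signals of markers of other cells were 254 to 376 in SOX11 siRNA, 294 to 344 in control siRNA and 268 to 376 in untreated cells for T and NK cells (5 genes). For myeloid cells (5 genes) they were 276 to 337 in SOX11 siRNA, 258 to 306 in control siRNA and 238 to 328 in untreated cells. For epithelial cells (5 genes) they were 473 to 664 in SOX11 siRNA, 483 to 639 in control siRNA and 479 to 557 in untreated cells, and those of fibroblasts (4 genes) and of erythroid cells and platelets (4 genes) overlapped between the groups in the same way. Of these 23 genes KRT18 alone passed a test, in SOX11 siRNA against untreated cells, where 0.805% of all probe sets were called higher. KRT18 had a mean signal of 163 with SOX11 siRNA and 104 in untreated cells (log2 fold change 0.57, adjusted p = 0.0203, limma). Its mean was 160 with control siRNA, with a log2 fold change of 0.56 for control siRNA against untreated cells (adjusted p = 0.0620, limma, no overlap) and 0.01 for SOX11 siRNA against control siRNA.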

How the data were processed

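Gene expression was profiled in 12 RNA samples of the MCL cell line Granta 519 on Affymetrix Human Gene 1.0 ST arrays. The authors deposited intensity values on a linear scale, computed by the PLIER algorithm (Affymetrix Expression Console 1.1) after background correction against probes of like GC content and scaled to a global median, per the file headers and the labels. In the study, RMA values and analysis of variance served for the statistics. The deposited fold changes and p-values of the authors' comparisons were not used, and a build for the probe sets is not given in the sources used. For this work log2(value + 16) of all 33297 probe sets was fitted for 3 groups with limma 3.58.1 in R 4.3.3 (lmFit, eBayes), with Benjamini-Hochberg adjustment and calls at 0.05. Fold changes on this scale are smaller for dim genes. The members and lists were chosen with earlier results of these data known. Other named genes were those of the lists past the test, or up to 3 of smallest p, and the 3 most correlated with each gene. Alternatives were quantile normalization, median centring, another pseudocount, filters, smaller fits, a one-way analysis of variance on the same log2 values, a trend prior, a replicate block, array weights and each array left out. The fit was tested on simulated data. For arrays, the number per group limits the precision.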

Additional observations from a re-analysis of the deposited data

Results flagged for a closer look

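Of 63 groups of 4 arrays on probe sets of HMG genes, 3 had 1 array far from the others, with a gap over the range above Dixon's critical value; chance gives about 1 in 20 groups. HMGN1 probe set 8176191 had 2347 on SOX11 siRNA replicate 1, where the other SOX11 siRNA arrays had 1734 to 1786. The probe set that lists CTCFL, SP100 and HMGB1 (8078248) had 4910 on untreated replicate 2, where the other untreated arrays had 5356 to 5408. HMGN2P46 had 39.6 on control siRNA replicate 4, where the others had 27.6 to 29.4.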

How the results depend on the processing

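The number of tested HMG genes called was 0 under all 24 alternatives for SOX11 siRNA against control siRNA and for control siRNA against untreated cells. For SOX11 siRNA against untreated cells it was 1 (HMGN1) and became 3 (HMGB2, HMGN1 and HMGN2) with quantile normalization, alone or with the replicate block. It was 0 with median centring, log2(value + 1), a fit of the 8 arrays compared and the one-way analyses of variance over 3 groups and over the groups compared, and 0 to 1 when each array was left out. It was 0 without SOX11 siRNA replicate 2, 3 or 4, control siRNA replicate 3 or untreated replicate 1, 2, 3 or 4. The cause of the changes between settings was not tested. HMGN1 passed there under 11 of 24. It kept its direction under all 24, with log2 fold changes of -0.56 to -0.36 and adjusted p of 0.00231 to 0.206 across the alternative fits. HMGN5 in that comparison passed under 23 of 24, with 0.0841 in the analysis of variance of the groups compared. With control siRNA against untreated cells HMGN5 passed under 5 of 24, quantile normalization (0.0430), that with the replicate block (0.0412), without dim probe sets (0.0402), probe sets with 1 symbol (0.0390) and array weights (0.0241), against 0.0855. Median centring moved the median of all probe sets to 0.04, against -0.06, and the split of calls to 383 lower and 938 higher, against 532 and 268; quantile normalization gave 1111 and 1263. For control siRNA against untreated cells the split was 72 lower and 57 higher, 56 and 126 with centring and 292 and 352 with quantile normalization.

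The main fit did not pair arrays by replicate number, and correlations within groups of 4 arrays cannot show whether they were paired. Deviations of same-numbered arrays correlated at -0.02 to 0.11 in SOX11 siRNA against control siRNA. The values were -0.25 to 0.29 in control siRNA against untreated cells and -0.15 to -0.00 in SOX11 siRNA against untreated cells. With the replicate block the members called were 0, 0 and 1 in that order. With 4 arrays per group, differences inside the intervals given could not be shown.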
